A study of Homo sapiens with 5 samples.

Results

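The comparison described here sets SU86.86 against L3.6, a pair of human pancreatic cancer cell lines, gene by gene. Its members are 2 of the 5 arrays of the series, the sample titled SU86.86 and the sample titled L3.6, and 14894 genes of the 19775 that have a probe set carrying a single gene symbol. SU86.86 was established from a liver metastasis of a pancreatic ductal carcinoma. L3.6 descends from a line grown from a pancreatic tumour metastasis and was selected by passage through nude mice. The series profiled 5 pancreatic lines on 1-colour Affymetrix arrays with 1 array per line, so each value below stands for 1 culture of 1 line and no difference has a replicate check or a p-value. The remaining lines are PANC1, HPAF1 and HPDE, which the labels also call a pancreatic cancer line, although HPDE is known as an immortalised line of normal duct epithelium. All lines were grown untreated under the supplier's culture conditions.

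Many pancreatic ductal carcinomas lose the tumour suppressors CDKN2A and SMAD4. Their cells keep features of duct epithelium to different degrees, which are read from keratins, cadherins, mucins and secreted proteins. They also differ in how far they produce cytokines and display antigen, through signalling by NF-kappaB and interferon and through the major histocompatibility complex (MHC).

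Levels are given as log2 of the deposited intensity plus a constant of 71.1, and a difference is the SU86.86 level minus the L3.6 level. A positive value therefore means higher in SU86.86. Adding the constant keeps dim probe sets from producing large ratios and also makes the fold of a dim gene smaller than its raw ratio. A gene counted as called when it was at least 2-fold apart, a difference of 1 or more in size. Genes entered when at least 1 of the 5 lines reached the level filter, a level of 7.72. A gene that passed only through the line in which it was high had to differ, so the counts below describe the genes past the filter and not whole gene families. A probe set has its own brightness per transcript, so levels are compared between lines and never between genes.

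At that threshold 1082 genes (7.26% of those past the filter) were higher in SU86.86 and 502 (3.37%) were lower, so 10.6% were called in either direction. The genes higher in SU86.86 were 68.3% of those called and 77.7% of those at least 4-fold apart. At 4-fold or more, 286 genes were higher and 82 lower, and at 8-fold or more 95 and 15. At 16-fold or more 20 were higher and 6 lower, and at a difference of 5 or more in size 2 were higher and 2 lower. The median difference over all 14894 genes was -0.07 and the median size of a difference was 0.29. The 9 spike-in control probe sets differed by between -0.04 and 0.10, and median intensity was 137 on the SU86.86 array and 142 on the L3.6 array. Near the threshold lay 309 genes with a difference between 0.9 and 1 in size and 248 between 1 and 1.1. Of the called genes, 301 of the higher ones were below the filter level in L3.6 and 140 of the lower ones were below it in SU86.86, so their folds depend on a dim probe set.

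**Figure D1:**
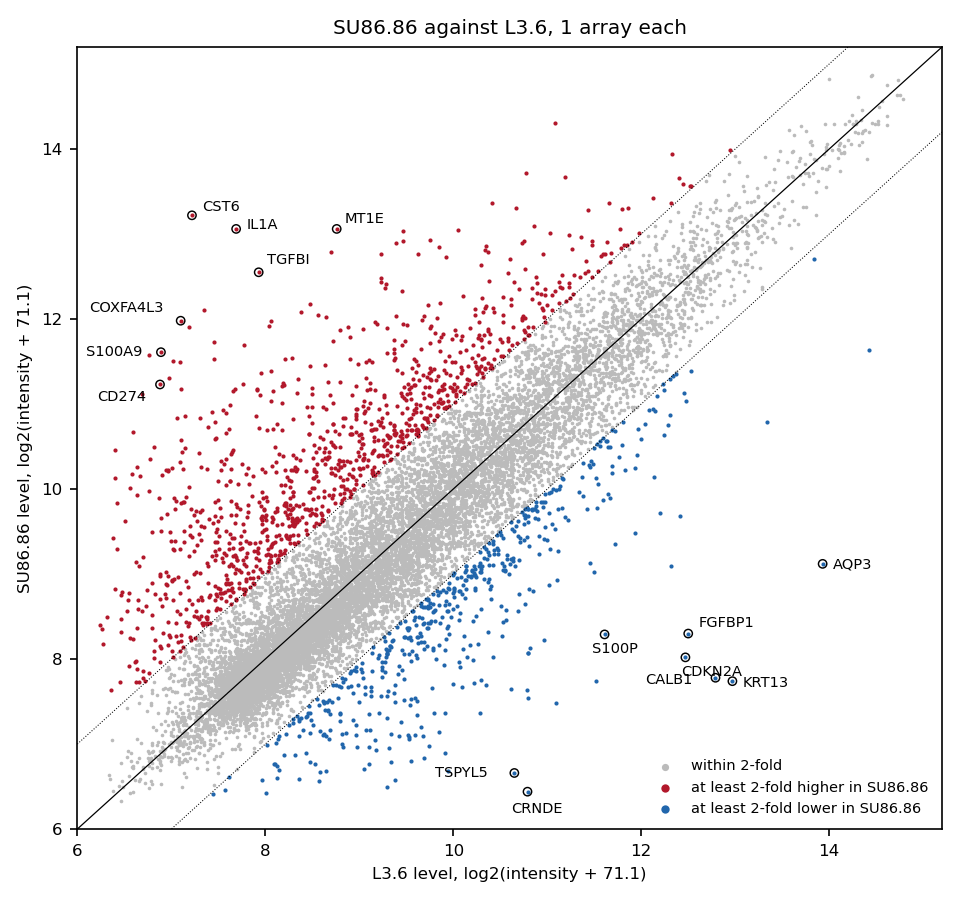
Level of each of 14894 genes in L3.6 (horizontal axis) against SU86.86 (vertical axis), both log2(intensity + 71.1), with dotted lines at 2-fold. Red points (1082) lie at least 2-fold higher in SU86.86 and blue points (502) at least 2-fold lower; CST6 and IL1A lie farthest above the diagonal and KRT13 and CALB1 farthest below.

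The widest difference upward was that of CST6, which encodes cystatin E/M, a secreted inhibitor of cysteine proteases. Its level was 13.22 in SU86.86, 7.22 in L3.6, 7.19 in PANC1, 8.67 in HPAF1 and 7.96 in HPDE, a difference of 5.99 or 63.7-fold between SU86.86 and L3.6. No other line came near SU86.86, whose gap to the next line was 4.55, although a second CST6 probe set differed by only 1.55. IL1A, the gene of the cytokine interleukin-1 alpha, stood at 13.06 in SU86.86 and 7.69 in L3.6, 41.2-fold apart. HPDE, at 11.99, was also high in IL1A, whereas PANC1 (7.36) and HPAF1 (8.30) were low like L3.6. COXFA4L3 (formerly C15orf48) differed by 4.88, and its second highest line was PANC1 at 10.57. S100A9, a subunit of calprotectin in inflammatory cells and epithelia, was 26.3-fold higher, with 11.61 in SU86.86 against 6.89 in L3.6. HPDE was higher still for S100A9 (12.07). S100A8, the other calprotectin subunit, differed by 0.92 and was not called. CD274, which encodes the immune checkpoint ligand PD-L1, stood at 11.23 in SU86.86 and 6.88 in L3.6, a 20.4-fold difference seen at both of its probe sets (2.72 and 4.35). The next line for CD274 was HPDE at 8.91, so SU86.86 held the highest level of the 5 lines.

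The other genes among the 15 widest upward differences were CLDN11 (a claudin, 4.82, with another probe set at 0.57), SLC43A3 (4.76), IFI27 (an interferon-induced gene, 4.71), TGFBI (a matrix protein induced by TGF-beta, 4.61), ZBED2 (4.48), COL8A1 (a collagen, 4.43), RAB25 (a small GTPase of epithelial recycling endosomes, 4.40), SCEL (sciellin of the cornified envelope, 4.34), MT1E (a metallothionein, 4.30) and MGLL (monoglyceride lipase, 4.28). The other 3 lines varied among these genes. COL8A1 was at 11.12 in SU86.86 and between 6.69 and 7.34 in the other 4 lines. IFI27, by contrast, was at 7.19 in L3.6 and 7.14 in PANC1 but at 14.20 in HPAF1 and 13.86 in HPDE, both above the 11.91 of SU86.86. TGFBI likewise was higher in HPAF1 (13.61) than in SU86.86 (12.55), and L3.6, at 7.93, was the lowest of the 5 lines.

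KRT13, a keratin of stratified non-cornifying epithelia, gave the widest difference in the other direction. It stood at 7.74 in SU86.86 and 12.97 in L3.6, with PANC1 at 7.15, HPAF1 at 7.15 and HPDE at 7.76, so L3.6 alone was high, 37.5-fold above SU86.86. CALB1 (calbindin, a calcium buffer) stood at 7.78 in SU86.86 and 12.79 in L3.6, 32.1-fold apart, and HPAF1 was also high at 11.53. AQP3, a channel for water and glycerol, was 28.0-fold lower in SU86.86 (9.12) than in L3.6 (13.93). For AQP3 the levels of HPAF1 (12.63) and HPDE (11.75) lay between those, and PANC1 was lowest at 7.83. CRNDE, a long noncoding RNA, was low in SU86.86 alone, with 6.44 against 10.79 in L3.6 and at least 10.05 in every other line. FGFBP1, a secreted carrier of fibroblast growth factors, decreased by 4.20 from L3.6 to SU86.86.

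Next in size came TSPYL5 (-3.99), HTRA1 (a secreted protease, -3.78), COL4A2 (a basement membrane collagen, -3.61), S100P (-3.32), WDR72 (-3.27), HMGN5 (-3.26), DDIT4 (an inhibitor of mTORC1 signalling, -3.23), STC1 (stanniocalcin, -3.14) and KLHL9 (-3.02). STC1 resembled KRT13 in that only L3.6 was high: 10.78 there, and between 7.49 and 7.64 in the other 4 lines. S100P differed in this respect. HPAF1 (13.74) exceeded L3.6 (11.61), HPDE (11.51) was close to L3.6, and SU86.86 (8.29) and PANC1 (7.20) were low.

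**Figure D2:**
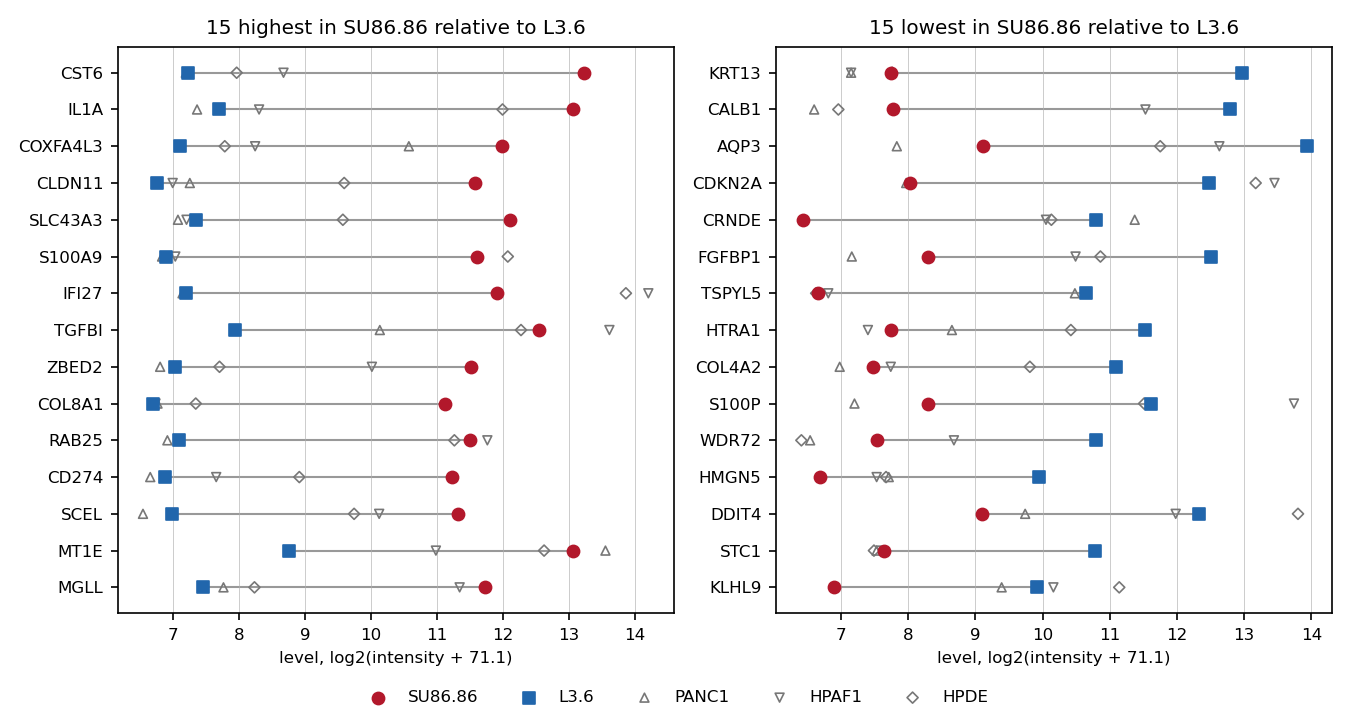
Levels, log2(intensity + 71.1), in 5 cell lines for the 15 genes highest (left) and the 15 lowest (right) in SU86.86 relative to L3.6; 1 array per line, and the grey bar joins SU86.86 (red circle) to L3.6 (blue square). COL8A1 and CST6 are high in SU86.86 alone, KRT13 and STC1 in L3.6 alone, and CRNDE is low in SU86.86 alone.

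The remaining 3 lines separate genes by which member of the pair stood apart. Among the 1584 called genes, SU86.86 alone was at least 2-fold above the other 4 lines in 185 and below them in 35. L3.6 alone was above them in 79 and below them in 106, and in 1179 genes neither line stood alone. The widest gaps above all other lines in SU86.86 belonged to CST6, COL8A1 (3.78), TMEM200A (3.48), PTX3 (3.27), INHBA (3.07) and GREM1 (2.98). PTX3 encodes the soluble pattern receptor pentraxin 3, INHBA the beta A subunit of activin and GREM1 the BMP antagonist gremlin. In L3.6 the widest gaps were those of KRT13 (5.21), STC1 (3.14), NLRP2 (2.62), PADI3 (2.51), CT83 (2.37) and COL1A2 (2.32).

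L3.6 lay farthest below all other lines in MX2 (3.14), CRABP2 (2.81), IRF7 (2.81), NMRAL1 (2.59), ZFP36 (2.38) and AHNAK2 (2.36). MX2 is an antiviral interferon-induced GTPase, CRABP2 carries retinoic acid, IRF7 is a transcription factor of the interferon response and ZFP36 (tristetraprolin) promotes decay of cytokine mRNAs. For MX2 the level was 6.94 in L3.6, 10.22 in SU86.86, 10.24 in PANC1, 10.08 in HPAF1 and 11.12 in HPDE. For SU86.86 the widest gaps below the rest were those of CRNDE (3.61), KLHL9 (2.51), GDF15 (2.22), RNF128 (2.13), HAS3 (2.11) and PSAT1 (1.77). GDF15, a stress-induced cytokine of the TGF-beta family, stood at 7.12 in SU86.86, against 9.34 in L3.6 and 12.46 in HPAF1.

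EPCAM and the keratins KRT7, KRT8, KRT18 and KRT19 were high in both lines, but not every duct marker was. Of 21 duct and simple epithelium markers with a probe set, 3 were below the filter in both lines. PROM1 (6.87), MMP7 (7.58) and CA2 (6.55) were below it in L3.6. EPCAM stood at 13.19 in SU86.86 and 13.10 in L3.6, and KRT19 at 13.52 and 13.40, differences of 0.08 and 0.12. KRT7 (0.74) and KRT18 (0.82) were within 2-fold, and KRT8 (1.04) was just past it. Of 18 duct and simple epithelium markers past the filter, 9 were higher in SU86.86, none was lower and the median difference was 0.93, against -0.07 over all genes. PROM1 (the surface protein CD133) led them at 9.90 in SU86.86 and 6.87 in L3.6, followed by CDH1 (2.82), TFF1 (2.58), MMP7 (2.47) and SOX9 (2.16). TFF1 encodes a trefoil peptide of mucous cells and SOX9 a duct transcription factor. PROM1 and TFF1 were highest in SU86.86 among the 5 lines, whereas MMP7 was higher still in HPAF1 (13.30).

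Many markers of other cell types were dim in both lines. Past the level filter, 1 of 6 immune, 1 of 3 endothelial, 1 of 4 acinar and 1 of 7 islet markers were called, all higher in SU86.86. Of 11 fibroblast and stellate cell markers 1 was higher and 1 lower. Over all genes past the filter 10.6% were called, so these small lists did not hold fewer calls. Of 13 immune markers with a probe set, 9 were below the filter in both lines. PTPRC, the pan-leukocyte gene, stood at 7.12 in SU86.86 and 7.07 in L3.6. LAPTM5 was the only immune marker called (1.45). The summed level over the list, dim genes included, was 100.9 in SU86.86 and 99.5 in L3.6. Each dim gene adds its background level to such a sum, so the sums given here say little about expression of the markers. Of 10 endothelial markers 7 were below the filter in both lines, with ENG higher by 2.12 and CDH5 at 7.14 and 7.13, and the summed levels were 76.6 and 75.8. Of 12 acinar markers 9 were below it in both lines, PRSS2 was called (2.73), and the summed levels were 88.3 and 87.2. Of 12 islet markers 6 were below it in both, SCG5 was called (1.92), and the summed levels were 93.5 and 92.4. Of 14 fibroblast and stellate cell markers only 5 were below it in both lines, and the summed levels were 116.5 and 114.5. In that list FN1 was higher (3.48) and COL1A2 lower (-2.53), and DCN was near the filter in both (7.93 and 8.27). Whether fewer expressing cells or less RNA per cell underlies any difference cannot be told apart in bulk RNA.

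The epithelial and the mesenchymal list both held genes higher in SU86.86. In the epithelial list 10 of 29 genes were higher in SU86.86 and 1 lower, with a median of 0.49. CDH1, encoding E-cadherin, stood at 12.73 in SU86.86 and 9.92 in L3.6, near the levels of HPAF1 (12.90) and HPDE (13.34) and far above PANC1 (8.61). RAB25 was at 11.50 against 7.09, EHF at 12.19 against 9.86 and GRHL2 at 10.41 against 8.15. EHF and GRHL2 are epithelial transcription factors. ELF3, of the same ETS family as EHF, ran the other way, at 8.07 against 10.80. In the mesenchymal list 8 of 22 genes were higher in SU86.86 and 2 lower. CDH2, encoding N-cadherin, stood at 11.53 in SU86.86 and 7.45 in L3.6, and FN1 (fibronectin) at 11.24 and 7.76. CALD1, an actin-binding protein, differed by 3.32, FSTL1 by 2.51 and LOX, which cross-links collagen, by 1.75. VIM, encoding vimentin, was lower in SU86.86, at 12.71 against 13.84, as was TWIST1, at 6.69 against 8.15. SU86.86 was therefore higher than L3.6 in both E-cadherin and N-cadherin and lower in vimentin.

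Cell junction genes were counted by type of junction, beside 7.26% higher and 3.37% lower among all genes. Of 25 tight junction and apical transport genes 10 (40.0%) were higher in SU86.86 and none lower, with a median of 0.46. They included CGN (cingulin, 9.85 against 7.14), CLDN4 (10.52 against 8.72), OCLN (occludin, 11.07 against 9.48) and TJP1 (ZO-1, 12.01 against 10.73). Of 13 desmosomal genes 1, PKP2 (1.75), was higher, none was lower and the median was 0.01. Among gap junction genes GJB2 (2.74) and GJB6 (2.43) were higher and GJB5 lower (-2.70).

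Keratins and other markers of stratified epithelia were lower in SU86.86 in 7 of 12 genes and higher in 2, with a median of -1.45. Below KRT13 came S100A2 (11.63 in SU86.86 and 14.42 in L3.6), KRT5 (9.68 and 12.41), FAT2 (7.17 and 9.11), KRT15 (8.77 and 10.70) and TRIM29 (9.94 and 11.65). KRT5 pairs with KRT14 in basal cells. HPDE had the highest KRT5 level, 13.83, and KRT14 was at 13.64 there but at 6.99 in SU86.86 and 7.44 in L3.6. KRT4, the usual partner of KRT13, was higher in SU86.86, 9.36 against 7.61, so the keratin pair was split between the lines. Without probe sets of the _s_at and _x_at kinds, which can match several transcripts, the list median was -0.68 over 9 genes.

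Genes of published pancreatic tumour classes were called equally often in both directions. Of 34 genes of the classical class, 5 were higher and 5 lower in SU86.86 (14.7% each). Of 22 genes of the basal-like class, 5 were higher and 5 lower (22.7% each). These shares were above those of all genes, 7.26% higher and 3.37% lower. Classical genes higher in SU86.86 included CEACAM6 (12.18 against 8.48) and AGR2 (12.77 against 9.62), and S100P and ELF3 were lower. Basal-like genes higher in SU86.86 included CST6, SCEL and UCA1 (11.17 against 7.91), and FGFBP1, S100A2 and KRT5 were lower. Class medians were -0.04 and 0.07, close to that of all genes. Among mucins MUC20 was higher (1.77) and MUC2 lower (-1.56), and MUC1 differed by -0.84. Genes that build mucin-type sugars were higher in 7 of 25 and lower in none. GALNT6 (2.01), GALNT10 (1.92) and GALNT3 (1.72), transferases that start O-linked chains, led them. Another GALNT10 probe set differed by 0.03.

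**Figure D3:**
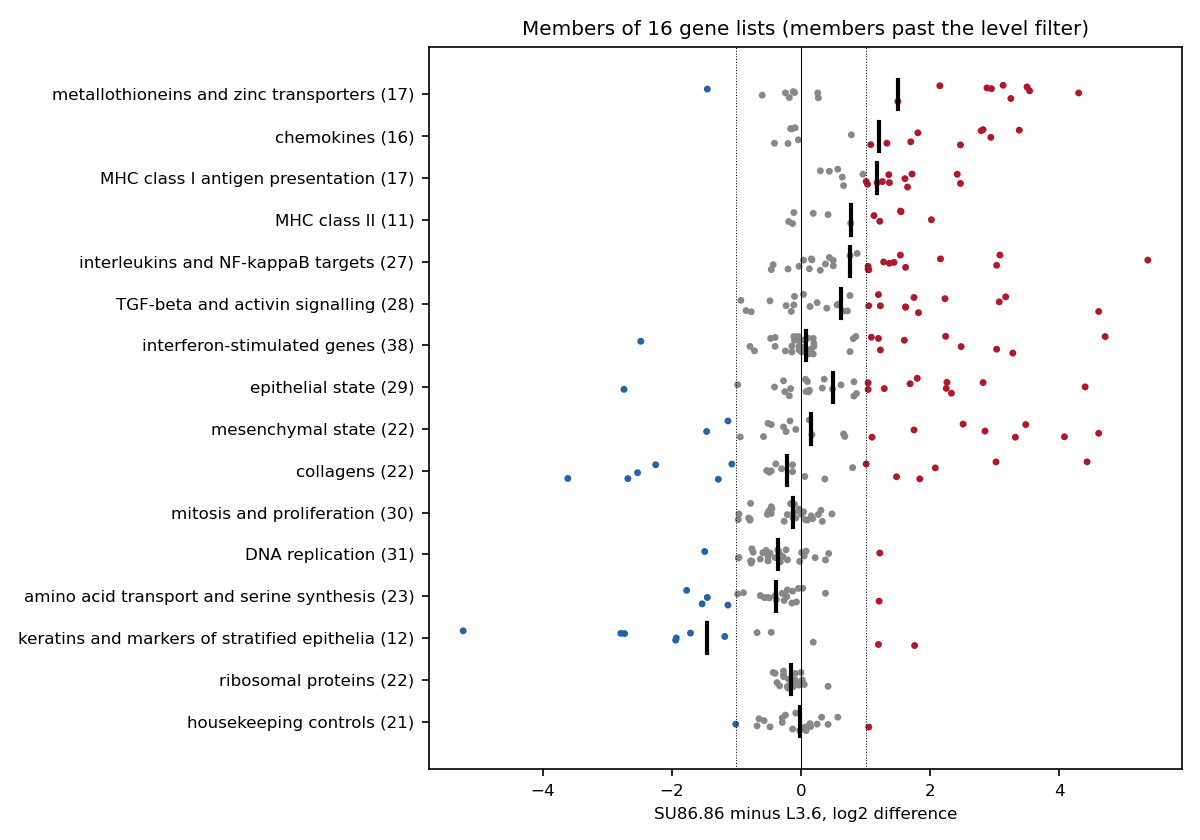
SU86.86 minus L3.6 log2 difference of each member past the level filter in 16 gene lists (number of members in brackets); black bars are list medians, dotted lines 2-fold, red and blue points members called higher and lower. Metallothioneins, chemokines and MHC class I genes have medians above 1, stratified keratins lie at -1.45, and mitosis, ribosomal and housekeeping genes lie near 0.

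Metallothioneins, small cysteine-rich proteins that bind zinc, copper and cadmium, were higher in SU86.86 in 7 of the 8 genes past the filter, by 2.88 to 4.30, and MT3, best known from the brain, was not called (7.89 against 8.01). MT1E stood at 13.06 in SU86.86, 8.76 in L3.6, 13.55 in PANC1, 10.98 in HPAF1 and 12.62 in HPDE. MT2A stood at 13.72, 10.77, 14.10, 12.74 and 12.46 in the same order, and MT1X at 12.89, 9.39, 13.44, 11.42 and 11.73. L3.6 was the lowest of the 5 lines in these 7 genes, whereas it was the lowest in 14.4% of all genes. Near-identical copies share probes: 6 of the 7 probe sets used are of the _s_at or _x_at kind. MT1M, the exception, stood at 9.29 in SU86.86 and 6.42 in L3.6. MT1G has a second probe set outside that kind, which differed by 0.01, so which copies differ is uncertain. Zinc importers diverged: SLC39A10 (2.15) and SLC39A8 (1.50) were higher, SLC39A6 was lower (-1.45), and the zinc exporter SLC30A1 differed by -0.10. Over the list of 17 genes the median was 1.50, but -0.06 over the 10 genes left without _s_at and _x_at probe sets.

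Metallothionein genes lie in a cluster on chromosome 16 and are switched on by the metal-sensing factor MTF1 through metal response elements, and MTF1 itself differed by -0.24. Of the 7 genes, 3 matched an entry in the RefSeq promoter table of build GRCh38.p14, and the 250 bases before their annotated starts are printed because the genes differed together. Capitals mark matches to the element's core, searched as TGCACNC or TGCGCNC on both strands with overlaps allowed. They are MT2A at chr16:56608334-56608583, MT1H at chr16:56669564-56669813 and MT1X at chr16:56682220-56682469, all on the plus strand.
MT2A: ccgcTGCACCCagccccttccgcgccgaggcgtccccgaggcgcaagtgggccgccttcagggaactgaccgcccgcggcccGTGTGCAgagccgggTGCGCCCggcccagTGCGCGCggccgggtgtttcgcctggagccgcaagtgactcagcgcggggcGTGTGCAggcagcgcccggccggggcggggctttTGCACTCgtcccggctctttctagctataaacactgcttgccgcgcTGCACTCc
MT1H: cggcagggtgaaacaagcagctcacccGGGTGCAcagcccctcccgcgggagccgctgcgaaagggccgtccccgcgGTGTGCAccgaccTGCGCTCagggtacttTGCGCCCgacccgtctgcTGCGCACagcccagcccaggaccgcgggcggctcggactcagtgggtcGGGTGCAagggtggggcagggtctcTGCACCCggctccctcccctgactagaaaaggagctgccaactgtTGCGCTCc
MT1X: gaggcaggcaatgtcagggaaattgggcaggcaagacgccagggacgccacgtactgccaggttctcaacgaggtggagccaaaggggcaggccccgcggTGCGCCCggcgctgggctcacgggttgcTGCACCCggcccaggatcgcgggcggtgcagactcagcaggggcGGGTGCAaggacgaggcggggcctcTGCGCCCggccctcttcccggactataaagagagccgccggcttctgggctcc
These windows held 7, 8 and 4 matches, while 24.8% of 35116 promoter windows of the same length held at least 1 match and 0.37% at least 4. The element is already known to act at metallothionein genes, so these shares are a description and no test of enrichment. A match to letters describes the window and does not show binding.

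Chemokines were higher in SU86.86 in 9 of 16 genes past the filter and lower in none, with a median of 1.21. CCL20, which attracts lymphocytes and dendritic cells, had the widest difference (3.38). It stood at 10.93 in SU86.86, 7.55 in L3.6, 7.24 in PANC1, 10.76 in HPAF1 and 7.94 in HPDE. The neutrophil-attracting CXC chemokines differed together. CXCL1 stood at 11.29 in SU86.86 and 8.35 in L3.6, CXCL2 at 11.01 and 8.18, CXCL3 at 11.13 and 8.34, and CXCL6 at 10.10 and 7.62. CXCL5 and CXCL8 were already bright in L3.6, at 11.66 and 10.35, and were higher in SU86.86 by 1.70 and 1.81. PANC1 had less than L3.6 of CXCL1, CXCL2, CXCL3, CXCL5, CXCL6 and CXCL8, with levels from 6.45 to 7.58. A second CXCL2 probe set differed by -0.27. With no level filter the chemokine median was 0.05 over 21 genes, since the genes added by that change were dim in all 5 lines.

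These CXC genes neighbour each other on chromosome 4, and NF-kappaB is known to act at their promoters. Each of the 6 genes matched the RefSeq promoter table, and each 250-base window held exactly 1 match to the letters GGAATTTCC, searched on both strands. The match began 77 to 91 bases before the annotated start. Of all 35116 windows, 0.413% held such a match. Only this 1 fixed spelling was searched, not a general NF-kappaB motif, in genes where the factor is already known to act. The share is therefore a description and no test of enrichment. The last 120 bases before the start are printed for 4 genes to show where the match, in capitals, lies. They are CXCL8 at chr4:73740449-73740568 and CXCL1 at chr4:73869273-73869392 on the plus strand, and CXCL5 at chr4:73998678-73998797 and CXCL2 at chr4:74099196-74099315 on the minus strand.
CXCL8: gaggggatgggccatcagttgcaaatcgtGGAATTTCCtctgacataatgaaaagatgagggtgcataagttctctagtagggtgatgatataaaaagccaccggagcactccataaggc
CXCL1: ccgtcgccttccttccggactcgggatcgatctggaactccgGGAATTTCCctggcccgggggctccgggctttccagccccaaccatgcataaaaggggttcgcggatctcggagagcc
CXCL5: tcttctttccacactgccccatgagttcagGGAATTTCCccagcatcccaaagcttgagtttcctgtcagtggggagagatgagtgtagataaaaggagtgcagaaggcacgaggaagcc
CXCL2: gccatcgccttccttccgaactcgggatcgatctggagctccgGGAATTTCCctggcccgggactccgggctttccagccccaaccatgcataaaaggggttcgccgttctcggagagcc
The windows of CXCL1 and CXCL2 are nearly alike in sequence, so their matches are not independent of each other.

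Interleukins and other NF-kappaB targets were higher in SU86.86 in 12 of 27 genes and lower in none, with a median of 0.76. SU86.86 was the highest of the 5 lines in 14 of the 27, against 14.8% of all genes. Besides IL1A, the cytokine genes included IL1B (11.21 in SU86.86 and 8.18 in L3.6), IL11 (10.66 and 7.58), LIF (10.69 and 9.14) and IL6 (8.44 and 7.16). A second IL11 probe set differed by 0.51. IL11, LIF and IL6 signal through the shared receptor chain IL6ST, which was itself higher by 1.37, as was the oncostatin receptor OSMR by 1.62. The feedback inhibitors TNFAIP3 (11.92 and 9.76) and NFKBIA (11.63 and 10.59) were also higher. PTX3 and LCN2, further secreted proteins of inflammation, were higher by 3.27 and 3.23, and CFB, complement factor B, by 3.58. TNFAIP3 was above 9 in SU86.86 and L3.6 and between 8.26 and 8.93 in the other lines.

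Genes of MHC class I antigen presentation were higher in SU86.86 in 11 of 17, and each of the remaining 6 had a positive difference of at least 0.30. The median was 1.18. The class I heavy chain HLA-B stood at 13.94 in SU86.86, 12.33 in L3.6, 11.12 in PANC1, 12.71 in HPAF1 and 13.64 in HPDE. Immunoproteasome subunits PSMB9 (11.26 and 8.79 in SU86.86 and L3.6) and PSMB8 (11.80 and 10.09) cut proteins into peptides for this pathway. The peptide transporters TAP1 (10.74 and 9.37) and TAP2 (11.18 and 9.53) and the trimming peptidase ERAP2 (9.73 and 7.31) were higher too. B2M, the light chain, differed by 0.57. SU86.86 was the highest of the 5 lines in 10 of the 17 genes and PANC1, not L3.6, was lowest in HLA-B, HLA-C and HLA-E. Heavy chain genes are alike in sequence and their probe sets can share signal. The median was 0.80 over 12 genes without _s_at and _x_at probe sets.

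MHC class II genes were higher in 5 of 11 and lower in none, with a median of 0.77. HLA-DPB1 stood at 9.21 in SU86.86 and 7.19 in L3.6, HLA-DRA at 9.52 and 7.99, and HLA-DMA at 8.49 and 7.27. The L3.6 levels of HLA-DPB1 and HLA-DMA were below the filter, and CIITA, the master regulator of the class, was near it in both (7.75 and 7.86). The class II median was 0.19 over 7 genes without _s_at and _x_at probe sets.

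**Figure D4:**
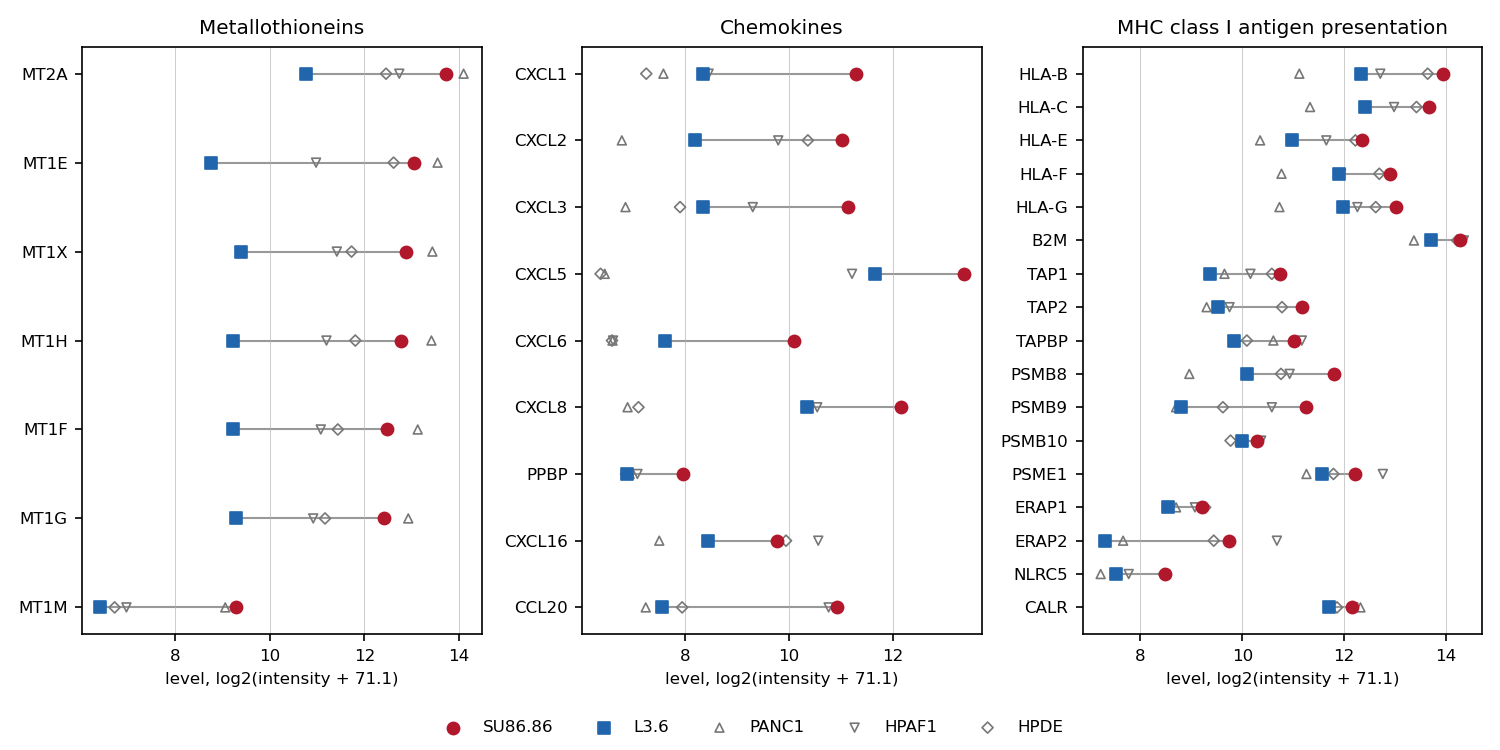
Levels, log2(intensity + 71.1), in 5 lines for metallothioneins, 9 chemokines and 17 MHC class I genes; 1 array per line, with grey bars from SU86.86 (red circle) to L3.6 (blue square). L3.6 is lowest of the 5 lines in the 7 metallothioneins shown, while PANC1 is lower than L3.6 in most CXC chemokines and class I heavy chains.

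Interferon-stimulated genes did not differ as a block. The median over 38 genes was 0.08. Of these genes 9 (23.7%) were higher in SU86.86 and 1 (2.63%) was lower, against 7.26% and 3.37% of all genes. The higher genes were IFI27, MX2, ISG15 (11.91 in SU86.86 and 8.88 in L3.6), GBP1 (10.10 and 7.63), EPSTI1 (9.28 and 7.03), PARP12 (1.60), MX1 (1.23), ISG20 (1.20) and USP18 (1.09). IFITM1, a membrane restriction factor, was lower, at 9.02 against 11.50. SU86.86 was the highest of the 5 lines in none of the 38 genes, against 14.8% of all genes. L3.6 was the lowest in 8 of them, against 14.4% of all genes. ISG15, for example, reached 12.95 in HPAF1 and 14.45 in HPDE. In the interferon signalling list IRF7 (3.25), SOCS3 (2.28, with another probe set at 0.08) and JAK1 (1.76) were higher, 3 of 20.

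Genes of TGF-beta and activin signalling were higher in SU86.86 in 11 of 28 and lower in none, with a median of 0.62. Ligand subunits INHBA (11.25 against 8.19) and INHBB (10.06 against 7.83) were higher, and so was FST, the activin antagonist follistatin (12.50 against 10.88). PANC1 was the highest line for INHBB, at 11.55, and INHBA was below the filter outside SU86.86 and L3.6. Targets and feedback genes TGFBI, CCN2 (3.17), PMEPA1 (1.75), SKI (1.23) and SKIL (1.20) were higher. SMAD4, the shared transducer, differed by -0.85, with 8.63 in SU86.86 and 9.48 in L3.6. L3.6 was the lowest line in 11 of the 28 genes. In the BMP list 2 of 20 were higher, the antagonist GREM1 (11.18 against 7.10) and the BMP target ID2 (9.91 against 8.01). The list's 2 lower genes were the ligand BMP7 (6.79 against 9.34) and GDF15.

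Among other signalling lists, CCN1 (12.85 against 9.85) and CCN2 (11.11 against 7.94), targets of the Hippo effector YAP, were higher, with LATS2, AMOTL2 and TEAD1 higher by 1.64, 1.21 and 1.07, 5 of 18 in all. In the WNT list 3 of 31 were higher and none lower, a share of 9.68% near the 7.26% of all genes, and the median was -0.11. The 3 were the receptor FZD6 (2.05) and the antagonists DKK3 (3.70) and SFRP1 (1.95). The EGF receptor list had 4 of 13 higher: the ligands EREG (1.36) and BTC (1.22), EGFR itself (1.16) and its inhibitor ERRFI1 (1.97). The other EGFR probe sets past the filter differed by 1.06, 1.05, 1.00, 0.74, -0.15 and -0.17. In the Notch list 3 of 27 (11.1%) were higher and 2 (7.41%) lower, against 7.26% and 3.37% of all genes. The Notch median was -0.01. The ligand DLL1 (-2.45) and the target NRARP (-1.27) were lower, and the target HES4 (1.06), DTX3 (1.19, with another probe set at -0.35) and the receptor NOTCH2 (1.03) were higher.

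Matrix genes split by chain. Of 22 collagen genes, 6 were higher and 6 lower in SU86.86. The lower ones held 4 chains of basement membrane collagen IV: COL4A2 (7.48 against 11.09), COL4A1 (8.13 against 10.82), COL4A6 (8.27 against 10.52) and COL4A5 (8.73 against 10.01). The others were COL1A2 (7.37 against 9.91), high in L3.6 alone, and COL5A2 (-1.07). Higher were COL8A1, COL6A1 (3.02 at the probe set used, between -0.52 and 1.20 at 7 more), COL16A1 (2.08), COL18A1 (1.84), COL7A1 (1.48) and COL12A1 (1.01). Laminin chains LAMB1 (1.72), LAMB3 (1.42) and LAMC1 (1.24) were higher, 3 of 8. Among 24 proteases and their inhibitors 8 were higher and 3 lower. TIMP2 (12.08 against 8.38), MMP7, ADAM8 (2.39) and PLAUR (2.23) were higher, and MMP1 (8.44 against 10.53), MMP10 (-1.24) and SERPINE2 (-1.07) were lower.

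Regulators of cell death were higher in SU86.86 in 9 of 32 genes and lower in none, with a median of 0.26. They included inhibitors of death, CFLAR (11.19 against 8.50), BCL2A1 (9.20 against 6.70), the decoy receptors TNFRSF11B (2.20) and TNFRSF10D (1.84), and BCL2L1 (1.26). They also included genes that promote it, PMAIP1 (10.94 against 8.65), BID (1.66) and BIK (1.44), so both kinds were represented. The 11 CFLAR probe sets past the filter differed by 0.09 to 2.69, and the widest was the one used.

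Few proliferation genes were called. None of 30 mitosis genes was called, with differences from -0.97 to 0.48 and a median of -0.12. Among 31 DNA replication genes POLA1 was lower (-1.49) and RFC5 was counted as higher (1.22), although other RFC5 probe sets differed by as much as -1.28. The replication median was -0.36, and L3.6 was the highest of the 5 lines in 18 of the 31 genes, against 19.4% of all genes. BRCA1 (-1.26) and RAD54L (-1.21) were lower among 26 repair genes. Histone genes were lower in 4 of 14 and higher in none, led by H2BC12 (-1.65), with a median of -0.69. None of 22 ribosomal protein genes was called, and of 21 housekeeping genes YWHAZ (1.05) was higher and VCP (-1.01) lower.

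In metabolism, enzymes of serine and asparagine synthesis were lower in SU86.86: PSAT1 (9.90 against 11.67), PHGDH (9.85 against 10.98) and ASNS (9.19 against 10.64). ASS1, of arginine synthesis, was lower by the same measure (10.75 against 12.28), and SLC7A1, a transporter of arginine, was higher (1.21). In that list of 23 genes 4 were lower, 1 was higher and the median was -0.38, with SU86.86 the lowest of the 5 lines in 13, against 23.6% of all genes. Of 23 genes of nucleoside metabolism, which includes the handling of gemcitabine, CDA was 9.97-fold higher, at 10.43 in SU86.86 and 7.11 in L3.6. CDA encodes cytidine deaminase, which inactivates gemcitabine. NT5E (13.37 against 10.41) and UPP1 (11.99 against 9.67) were higher, and MTAP and UCK1 (-1.15) were lower. DCK, the activating kinase, differed by 0.16, the importer SLC29A1 by 0.26 and RRM1 by 0.23. Lipid genes FADS2 (2.95, with another probe set at 0.05) and ACSL5 (2.41) were higher and SCD, stearoyl-CoA desaturase, was lower (-1.67).

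CRABP2, the retinoic acid carrier, stood at 11.92 in SU86.86 and 8.04 in L3.6 and above 10 in the other 3 lines. In the HOX list 4 of 19 genes were higher, and all 4 came from the HOXB cluster: HOXB2 (12.02 against 8.65), HOXB9 (1.97), HOXB6 (1.85) and HOXB3 (1.78). HOXC10 was lower (-1.98). HMGA2, an architectural chromatin protein of embryonic and tumour cells, differed by 4.10 at 1 probe set, with the 4 others past the filter between -0.29 and 0.00. LIN28B was higher (8.57 against 6.53), and PANC1 was the highest line, at 9.16.

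CDKN2A, which encodes the cell cycle inhibitors p16 and ARF, was lower in SU86.86 by 4.45. It stood at 8.02 in SU86.86, 12.47 in L3.6, 7.97 in PANC1, 13.45 in HPAF1 and 13.17 in HPDE, so SU86.86 and PANC1 were low and the other lines high. A second probe set gave 6.67 in SU86.86 and 10.33 in L3.6, and the remaining probe set, between 7.82 and 8.20 in all 5 lines, differed by 0.29. Its neighbours were read after their values had been seen. Of the 14 genes within 7 steps of CDKN2A in chromosome 9 order, MTAP (6.93 in SU86.86 and 9.18 in L3.6), CDKN2B (6.59 and 8.36), KLHL9 (6.89 and 9.91), FOCAD (6.68 and 8.65) and ELAVL2 (6.60 and 8.12) were lower in SU86.86. MLLT3, at the far end, was higher (9.12 and 7.64), and from TUSC1 to IFT74 on the other side the differences lay between -0.44 and -0.18. IFNW1, MIR31HG, IFNE and DMRTA1 were within 2-fold. In PANC1 the used probe set of MTAP read 9.83 and 3 other probe sets read 6.41 to 6.64, whereas KLHL9 (9.39) and FOCAD (8.40) were well above the SU86.86 levels.

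On chromosome 9 as a whole, 8.79% of 603 genes were lower in SU86.86 and 2.99% higher, with a median of -0.23. Chromosome X had 9.32% of 483 genes lower and 4.14% higher, and chromosome 18 had 7.73% of 220 lower and 6.82% higher. Chromosome 6 had the largest share higher, 13.7% of 775 genes, followed by chromosome 21 (12.7% of 166), 13 (11.8% of 263) and 4 (11.5% of 521).

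Runs of 15 neighbouring genes had medians from -0.94 to 1.63, and 5% of the 14530 runs lay below -0.36 and 5% above 0.38. The highest run lay on chromosome 19 from FBXO17 to TIMM50, where 9 of 15 genes were higher and none lower. Whether its members share a role was not tested. PAF1 (11.22 against 9.59) and SUPT5H (11.74 against 9.85) act in transcription elongation and MED29 (11.18 against 9.11) in the Mediator complex. PAK4 (11.49 against 10.02) acts in actin signalling and TIMM50 (12.43 against 10.65) in mitochondrial import. ZFP36 stood at 11.75 against 9.37 and FBXO17 at 10.89 against 7.58. PANC1 was higher still for PAF1 (12.45), MED29 (12.30) and TIMM50 (13.87), and HPAF1 was lower than L3.6 for all 3. The next runs were the CXC chemokine stretch on chromosome 4 (median 1.22) and HLA-DRA to HLA-DPA1 on chromosome 6 (1.13), which hold genes counted in their lists above.

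The lowest runs were TCEAL9 to RNF128 on chromosome X (median -0.94, 7 lower), MAPRE2 to FHOD3 on chromosome 18 (-0.83, 5 lower) and CT83 to NDUFA1 on chromosome X (-0.76, 5 lower). RNF128, a ubiquitin ligase, stood at 6.58 in SU86.86 and 9.38 in L3.6, and RADX, a DNA-binding protein of replication forks, at 6.80 and 9.55. CT83, a cancer-testis antigen, was high in L3.6 alone, at 9.68 against at most 7.31 in the other lines. On chromosome 18, MOCOS (8.27 against 10.11) and SLC39A6 (9.92 against 11.38) had the widest differences. No gene of the chromosome 18 run had a positive difference.

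**Figure D5:**
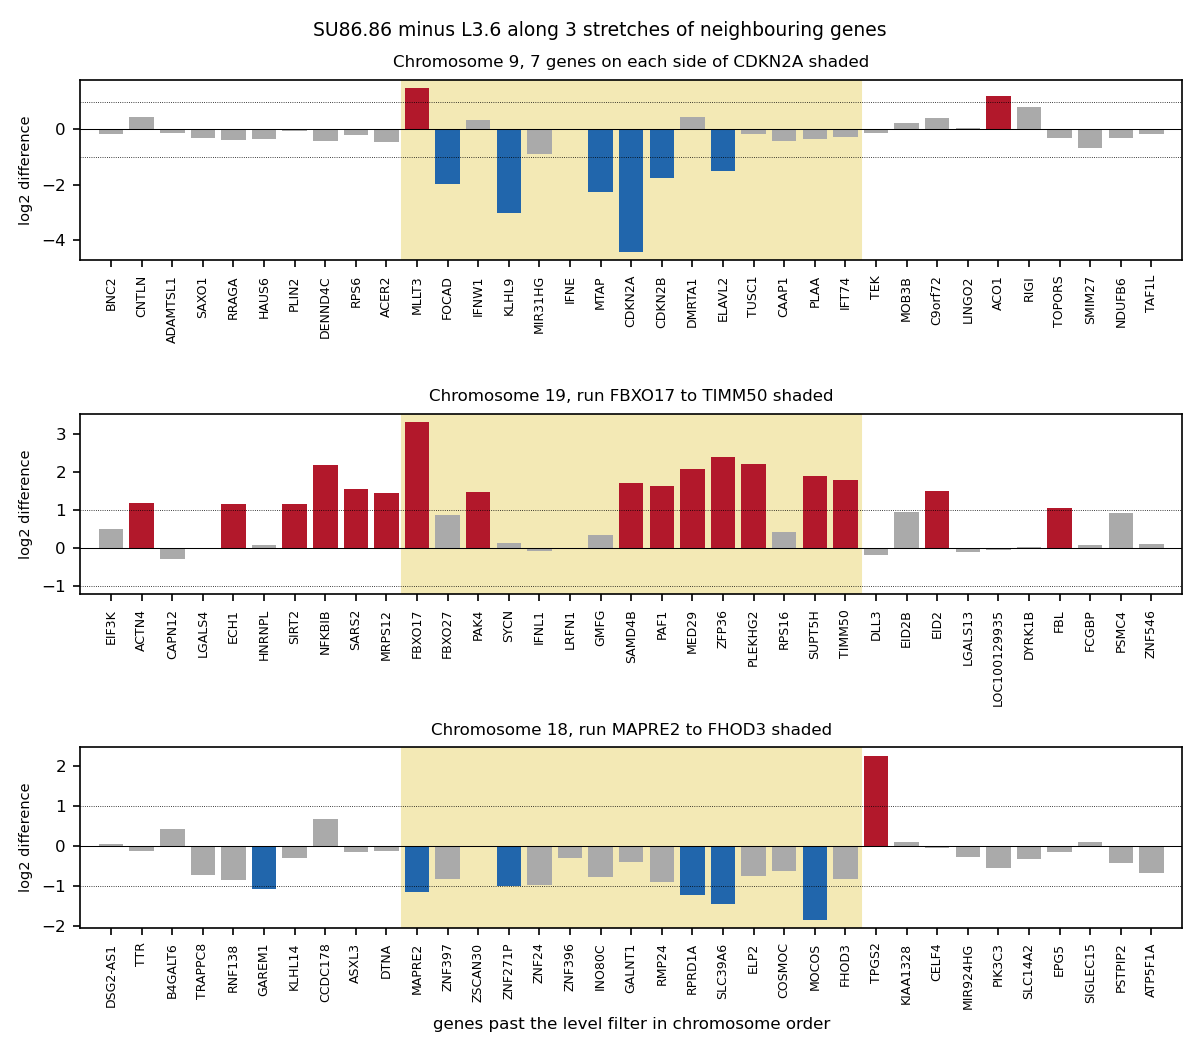
SU86.86 minus L3.6 log2 difference (bars) for genes past the level filter in chromosome order around CDKN2A on chromosome 9 and across the runs FBXO17 to TIMM50 on chromosome 19 and MAPRE2 to FHOD3 on chromosome 18, with 10 flanking genes on each side; dotted lines mark 2-fold. FOCAD, KLHL9, MTAP, CDKN2A, CDKN2B and ELAVL2 are lower in SU86.86, 9 genes of the chromosome 19 run are higher, and the chromosome 18 run has no positive bar.

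The remaining lines lay on either side of the called genes. Among the 1082 genes higher in SU86.86, HPAF1 lay nearer SU86.86 in 49.8%, HPDE in 43.2% and PANC1 in 42.6%. Among the 502 lower genes, HPAF1 lay nearer SU86.86 in 58.2%, PANC1 in 54.8% and HPDE in 49.2%. Of 911 called genes with several probe sets past the filter, 764 (83.9%) had all of them in the same direction and 332 had all of them at least 2-fold apart.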

How the data were processed

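Total RNA of 5 cell lines was extracted with an RNeasy protocol and labelled with the Affymetrix One Cycle kit, per the labels' protocols. The values used are the linear intensities the authors deposited, 1 per probe set and line, for 54675 probe sets. The summarisation and normalization that produced them are not given in the sources used here. Probe set symbols came from the platform annotation: 41091 probe sets carried 1 symbol, 1801 several and 11721 none, beside 62 controls, and only those with 1 symbol were named. Symbols were updated through RefSeq for 41037 of them, and 54 kept the older symbol.

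From these intensities the level log2(intensity + 71.1) was computed with python 3.11.15, numpy 2.4.6 and pandas 2.3.3, the constant being the 25th percentile of positive values. A gene was kept where its highest level over 5 lines reached the median of all probe sets, and its probe set with the highest mean over the lines was used. With 1 array per line no test was run and a gene was called at 2-fold. The scripts were tested on simulated data. The number of arrays limits the precision.

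Named genes were the 15 widest differences each way, up to 4 called members per list, a set of duct and driver genes, the 6 widest gaps in each class in which SU86.86 or L3.6 stood alone, and 2 genes in each of 3 highest and 3 lowest runs. XIST and Y-linked genes were left out. Further members of a family were named after their values were seen. The members and the 78 lists were chosen with earlier results of these data known. Alternatives were another constant, array scaling, quantile normalization, other level filters, the mean of probe sets, and leaving out _s_at and _x_at probe sets.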

Additional observations from a re-analysis of the deposited data

How the results depend on the processing

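No replicate exists for any line, so no result could be recomputed without a replicate. No paired analysis was possible because each line has 1 array. The counts of 1082 higher and 502 lower genes stayed within 1.5 times under the 9 alternatives tried, and the median size of a difference, 0.29, lay between 0.22 and 0.38. With a constant of 16 they were 1263 and 670, after quantile normalization 951 and 633 (60.0% higher among those apart), and with a gene's probe sets averaged 774 and 353, which kept 729 and 328 of the genes. Some values changed sign, and the cause was not tested. With a level filter at the 75th percentile the medians of acinar markers (2.73, from 1 gene), endothelial markers (0.88) and HOX genes (0.62) turned positive. With probe sets averaged, endothelial markers reached 0.52 and RFC5 -0.42. Without _s_at and _x_at probe sets the median was -0.12 for endoderm and duct transcription factors and -0.14 for oncofetal genes, and the differences were -0.52 for COL6A1, -0.27 for CXCL2 and -0.27 for HMGA2. Of the 243 named genes that were called, 203 kept the 2-fold call with probe sets averaged, 39 lost it and 1 changed sign. Without _s_at and _x_at probe sets 160 kept it, 15 lost it and 3 changed sign. The rest had no probe set past the filter left, so their calls could not be checked that way. Of the 78 list medians, 41 more moved by over 0.10, the widest spike-in difference, when those probe sets were left out, and 35 more at the 75th percentile filter. Dim probe sets limit folds.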
